A study of Mus musculus with 27 samples.

Results

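Pola2, Asb1 and Seh1l are 3 mouse genes whose recovery with the RNA-binding protein HuR, relative to total RNA, differed between macrophages treated with LPS and with DMSO. They were chosen by that difference: of 55483 genes in the count table, 14311 could be tested, and 6 passed an adjusted p (false discovery rate, FDR) of 0.05. The other genes that passed were Tnf, Eno2 and Slfn2. Among all genes tested, 0.014% were called higher and 0.028% lower, so the values that follow for LPS against DMSO describe the choice and carry no test. The share called is given for reference, and nothing is read from it.

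The cells were RAW264.7, an established mouse macrophage line, grown for 6 h in 1 of 3 treatments: DMSO, the solvent; LPS at 1 µg/ml with DMSO; or LPS with TM7nox at 10 µM. LPS is a bacterial cell wall component that activates macrophages, and TM7nox is a tanshinone mimic, a class of small molecules made to interfere with HuR binding to RNA. Each treatment had 4 total RNA libraries, 4 libraries of RNA recovered with an anti-HuR antibody (ribonucleoprotein immunoprecipitation, RIP) and 1 library recovered with control IgG, and replicates are numbered 1 to 4. All the cells are of 1 line and carried no stated genetic change, and no label says that the numbered replicates were separate cultures, so each p-value measures only the spread between these libraries.

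HuR, the product of Elavl1, binds U-rich and AU-rich stretches, mostly in 3′ UTRs and introns, and is best known for raising the stability or translation of the mRNAs it binds, among them inflammatory mRNAs of macrophages. Pola2 encodes the accessory B subunit of the DNA polymerase alpha and primase complex, which lays down the primers that start new DNA strands. Asb1 encodes a protein with ankyrin repeats and a SOCS box, the motif through which such proteins bring substrates to ubiquitin ligases built on cullin 5 and elongins B and C. Seh1l encodes a WD-repeat protein shared by the Nup107-160 complex of the nuclear pore and by GATOR2, a regulator of amino acid signalling to mTORC1.

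In the GENCODE M39 annotation of GRCm39, Pola2 (ENSMUSG00000024833) lies at chr19:5990570-6014261 on the minus strand, and its canonical transcript has 18 exons. Asb1 (ENSMUSG00000026311) lies at chr1:91468266-91487311 on the plus strand, with 5 exons. Neither overlaps another annotated gene.

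Because HuR favours U-rich RNA, the most U-rich 30 bases of each 3′ UTR are shown for Pola2 and Asb1. They are given 5′ to 3′ on the transcript strand with U, written as T, in capitals. The first is in the longest annotated 3′ UTR of Pola2 (chr19:5991296-5991325, minus strand), the next in the 3′ UTR of its canonical transcript (chr19:5990601-5990630, minus strand), and the last in the 3′ UTR of Asb1 (chr1:91484797-91484826, plus strand), where both transcripts give the same window.
Pola2, longest 3′ UTR: TggTTgccTTTgTTTcTaTTTTcTagaacT
Pola2, canonical transcript: cTTTTTTTgTaTgaaTcaaaTacagcgTgT
Asb1: TTTaTTTgTTTaTaTaTTTTTgTaTTTaTT
The windows hold 16, 13 and 22 U. Among 3′ UTRs within 20% of the same length, 49.8% had a window at least as U-rich as the first, 85.5% as the second and 51.7% as that of Asb1.

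The 3′ UTRs differed more in length and in AU-rich motifs. The longest 3′ UTR of Pola2 has 392 bases, of which 26.3% are U (320 bases and 24.7% in the canonical transcript), and no ATTTA, the core of AU-rich elements, on the transcript strand. That of Asb1 has 4715 bases, 31.1% U and 14 copies of ATTTA, and 11.3% of 3′ UTRs of like length have as many. That of Seh1l has 2325 bases and 36.3% U, a share that puts it at percentile 96.8 of 11131 genes, with 4 copies of ATTTA. In the canonical transcript of Seh1l it has 575 bases and 34.8% U (percentile 90.1). Runs of TTTTT, counted with overlaps, gave 35 in the longest 3′ UTR of Seh1l, where 5.50% of 3′ UTRs of like length have as many, and 4 in its canonical one (29.3%). Asb1 had 11 (81.6%). Pola2 had none in its longest 3′ UTR, where 52.0% of like length have at least 1, and 6 in its canonical one (7.93%). The most U-rich 30 bases of Seh1l hold 22 U in the longest 3′ UTR (34.1% at least as rich). At least 1 ATTTA occurs in 41.9% of 3′ UTRs of about the length of that of Pola2, so its lack there is common. Which 3′ UTR the cells use was not measured, and a motif is not a binding site.

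Across all groups the macrophage label held: 7 of 7 macrophage markers had a mean of at least 1 CPM (counts per 1 M reads of a library, normalised) in total RNA, with a summed level of 2405 to 5761 CPM, while the summed markers of T cells, B cells, fibroblasts and epithelial cells each reached at most 0.393 CPM. Libraries held 2728534 to 41449233 counts. RNA DMSO replicate 1, at the lower of these, was the shallowest. Levels are CPM on 1 scale over the 27 libraries, and they compare libraries within a gene, not genes with each other. In bulk libraries such as these, fewer cells with a transcript and less RNA per cell cannot be told apart.

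Pola2 was the gene that passed with the lowest p, and it moved from being depleted in RIP to being enriched. In total RNA its level was 58.0, 32.8, 43.3 and 40.7 CPM in DMSO replicates 1 to 4 and 42.9, 35.2, 36.9 and 34.5 CPM in LPS. The RNA groups overlapped. In anti-HuR RIP the level was 13.7, 14.4, 14.9 and 11.4 CPM in DMSO and 56.0, 87.8, 88.5 and 71.6 CPM in LPS. Every RIP library from LPS was above every one from DMSO, with means of 76.0 ± 15.4 and 13.6 ± 1.56 CPM (SD, n = 4 each). The log2 difference between LPS and DMSO was −0.27 (SE 0.165) in RNA and 2.42 (SE 0.200) in RIP. The RNA value moved with single libraries: it was −0.10 without RNA DMSO replicate 1 and −0.39 without RNA DMSO replicate 2.

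Asb1 went the opposite way, and its RNA and RIP levels moved in opposite directions. In total RNA it was at 0.872, 6.69, 5.44 and 3.98 CPM in DMSO and at 6.86, 10.4, 9.35 and 9.32 CPM in LPS. The first of these values rests on 4 reads in the shallowest library. Every RNA library from LPS was above every one from DMSO. In RIP it was at 48.7, 62.1, 61.2 and 69.3 CPM in DMSO and at 19.3, 16.1, 15.9 and 18.4 CPM in LPS, and these groups did not overlap either. The log2 difference between LPS and DMSO was 0.91 (SE 0.317) in RNA, or 0.70 without RNA DMSO replicate 1, and −1.85 (SE 0.308) in RIP.

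Seh1l was lower in RIP after LPS at a level in RNA that overlapped between the groups. The gene (ENSMUSG00000079614) lies at chr18:67907848-67928557 on the plus strand, with 8 exons. On the opposite strand the long noncoding RNA gene 4930549G23Rik covers 1310 of the 5767 exonic bases of Seh1l (22.7%). Whether counting used strand is not stated in the sources used here, and 4930549G23Rik itself was counted at 0 to 9 reads in the RNA libraries and at 7 to 119 in the RIP libraries, where it reached at most 3.92 CPM. Total RNA held 35.5, 39.3, 32.3 and 37.0 CPM in DMSO and 45.5, 36.6, 34.2 and 39.4 CPM in LPS. RIP held 285, 320, 247 and 255 CPM in DMSO and 132, 160, 83.1 and 88.7 CPM in LPS. All RIP libraries from DMSO were above all from LPS. The log2 difference was 0.06 (SE 0.150) in RNA and −1.32 (SE 0.236) in RIP. In each of the 3 treatments, RIP replicates 3 and 4 were below replicates 1 and 2.

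**Figure D1:**
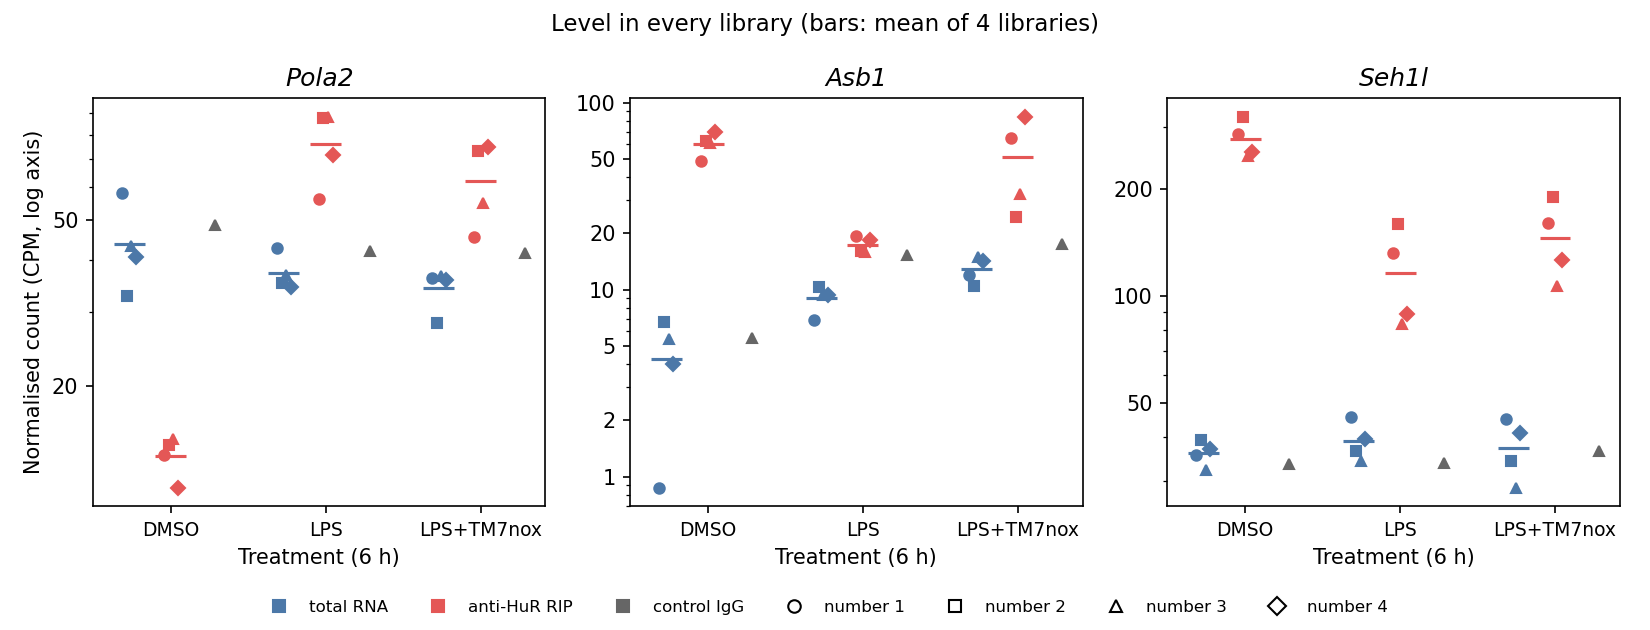
Normalised count (CPM, log axis) of Pola2, Asb1 and Seh1l in each of the 27 libraries by treatment, with total RNA in blue, anti-HuR RIP in red and control IgG in grey; marker shapes give the replicate number and bars the mean of 4 libraries. The RIP levels of Pola2 lie below its RNA levels in DMSO and above them in both LPS treatments, while RIP of Asb1 and Seh1l is highest above RNA in DMSO.

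RIP over RNA, the recovery of a transcript relative to the typical gene, put these levels together. For Pola2 it was −1.52 on the log2 scale in DMSO (SE 0.172) and 1.02 in LPS (SE 0.167), a difference of 2.55 (SE 0.240). Pola2 was thus at percentile 12.3 of all genes tested in DMSO and at percentile 70.4 in LPS. For Asb1 the values were 3.79 (SE 0.370) and 0.95 (SE 0.336), a difference of −2.84 (SE 0.482), from percentile 93.4 to percentile 69.4. For Seh1l they were 3.07 (SE 0.216) and 1.58 (SE 0.204), a difference of −1.49 (SE 0.284), from percentile 87.9 to percentile 76.9. In LPS all 3 genes lay between percentiles 69.4 and 76.9, whereas in DMSO they stood on both sides of the typical gene. The median gene had a difference of 0.02. Without RNA DMSO replicate 1, RIP over RNA in DMSO was −1.47 for Pola2, 3.53 for Asb1 and 2.98 for Seh1l.

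Same-numbered libraries gave the same picture for each gene. The difference of RIP over RNA between LPS and DMSO was 2.46, 2.50, 2.79 and 2.88 for Pola2 in replicates 1 to 4 (log2). It was −4.20, −2.57, −2.71 and −3.12 for Asb1 and −1.47, −0.90, −1.66 and −1.61 for Seh1l. The largest value for Asb1 comes from the shallowest library, and without that library the fitted difference was −2.59, beside 2.49 for Pola2 and −1.41 for Seh1l. Replicates 1 and 2 alone and replicates 3 and 4 alone gave 2.38 and 2.72 for Pola2, −2.63 and −3.03 for Asb1, and −1.31 and −1.75 for Seh1l. The numbers pair the libraries, and with the replicate block the comparison called 50 genes in place of 6. The blocked differences were 2.54 for Pola2, −2.78 for Asb1 and −1.51 for Seh1l.

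**Figure D2:**
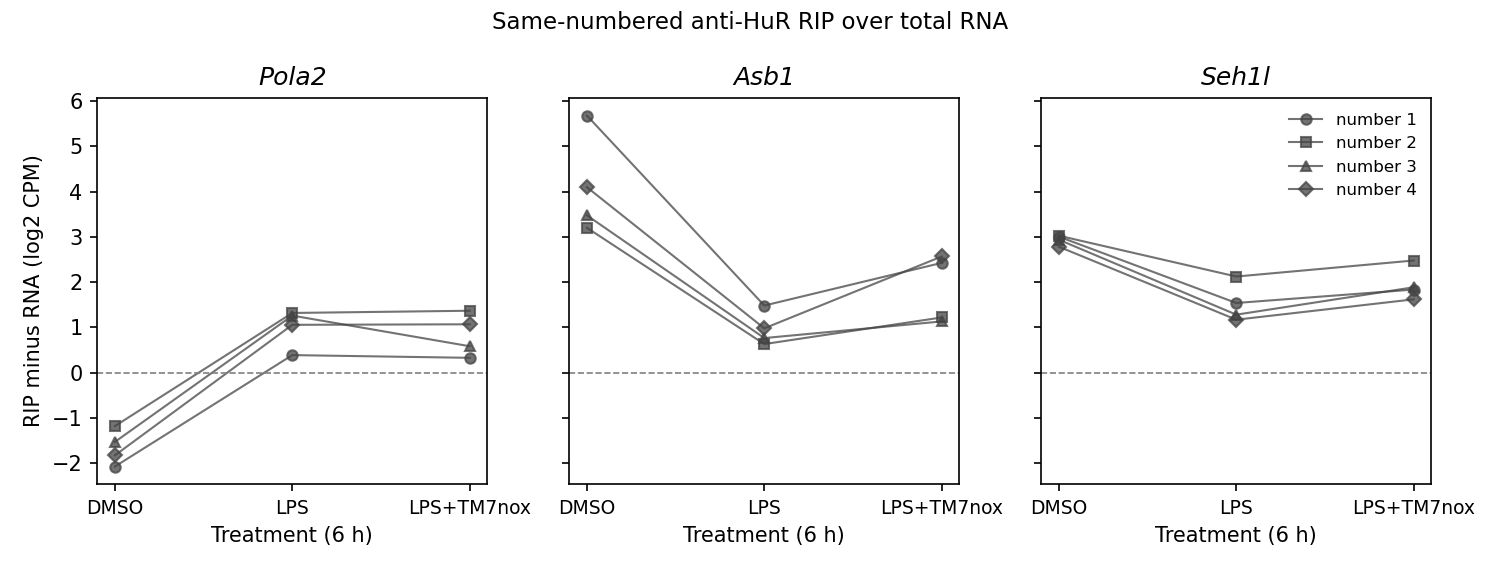
Log2 difference between same-numbered anti-HuR RIP and total RNA libraries (y axis) by treatment (x axis), with a line per replicate number. All 4 lines of Pola2 rise from below 0 in DMSO to above 0 in LPS, and all 4 lines of Asb1 and of Seh1l fall from DMSO to LPS.

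Without the replicate block, the threshold ran close to Seh1l. It was the last gene inside, with an FDR of 0.0472, and the first outside were Apbb3 with a difference of −1.86 (FDR 0.0514) and Ggta1 with −1.70 (FDR 0.0559). Pola2 was inside with an FDR of 1.15e-06 and Asb1 with 0.0132, all from edgeR's quasi-likelihood test. By size, the difference of Pola2 was the 50th highest, that of Asb1 the 95th lowest and that of Seh1l the 535th lowest of 14311. Leaving out each of the 16 libraries in turn kept Pola2 inside 16 times, Asb1 15 times and Seh1l 1 time. The exception for Asb1 was the fit without RNA DMSO replicate 4. With the replicate block all 3 were inside, with FDRs of 6.68e-07 for Pola2, 0.00235 for Asb1 and 0.000608 for Seh1l by the same edgeR test. By p, Seh1l then ranked 4 and Asb1 ranked 8 among the 50 genes called, so Seh1l was close to the threshold only without the block. These values describe where the threshold fell among the chosen genes and test nothing further.

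RIP over RNA in LPS+TM7nox was tested because the choice did not compare those libraries, although they shared in the estimate of the spread behind it. All 3 genes were higher in RIP than in RNA: Pola2 by 0.92 on the log2 scale (SE 0.168, FDR 3.01e-05), Asb1 by 2.06 (SE 0.341, FDR 8.04e-06) and Seh1l by 2.04 (SE 0.207, FDR 3.41e-09), by edgeR's quasi-likelihood test. In a fit of these 8 libraries alone, added after seeing the data, the values were 1.09 (SE 0.185, FDR 0.000189), 2.24 (SE 0.352, FDR 9.61e-05) and 2.20 (SE 0.222, FDR 2.14e-06) by the same edgeR test. RIP was above the same-numbered RNA library in 4 of 4 pairs for each gene. This was no rare result, since 35.2% of the genes tested were called higher in RIP in LPS+TM7nox and 34.8% lower. Pola2 stood at percentile 66.2, Asb1 at 78.5 and Seh1l at 78.2.

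Pola2 in LPS+TM7nox was at 36.3, 28.3, 36.7 and 35.8 CPM in RNA and at 45.5, 73.0, 55.0 and 75.0 CPM in RIP. These ranges overlapped those of LPS in both assays. Asb1 was at 11.9, 10.5, 14.9 and 14.2 CPM in RNA and at 64.4, 24.5, 32.7 and 84.3 CPM in RIP. All 4 of its RIP libraries were above those of LPS. Seh1l was at 45.1, 34.1, 28.8 and 41.0 CPM in RNA and at 161, 190, 106 and 126 CPM in RIP. Its RIP libraries overlapped those of LPS and stayed below all those of DMSO.

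Against LPS, LPS+TM7nox differed in RIP over RNA by −0.11 for Pola2 (SE 0.235), by 1.11 for Asb1 (SE 0.470) and by 0.46 for Seh1l (SE 0.283) on the log2 scale. Against DMSO the same quantity was 2.44 (SE 0.240), −1.72 (SE 0.475) and −1.03 (SE 0.284). These comparisons share the LPS or the DMSO libraries with the choice and are given as values. By replicate number, LPS+TM7nox minus LPS was −0.06, 0.05, −0.68 and 0.01 for Pola2, 0.94, 0.59, 0.37 and 1.59 for Asb1, and 0.30, 0.35, 0.61 and 0.45 for Seh1l. The sign was thus mixed for Pola2 and positive in 4 of 4 numbers for Asb1 and Seh1l. In RIP alone, Asb1 differed by 1.60 (SE 0.306) between LPS+TM7nox and LPS, Pola2 by −0.26 (SE 0.189) and Seh1l by 0.36 (SE 0.233). In RNA the differences were 0.51 (SE 0.307), −0.14 (SE 0.164) and −0.08 (SE 0.149) in the same order. Over all genes, edgeR called 1, the predicted gene Gm5526, higher (0.00699%) and none lower (0%) in the change of RIP over RNA from LPS to LPS+TM7nox.

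Control IgG libraries showed the relative levels of RNA recovered without the anti-HuR antibody, in 1 library per treatment, all replicate 3, without a test. As CPM they give no amount of RNA recovered. Pola2 in IgG was at 48.7 CPM in DMSO (exact binomial 95% interval 46.5 to 51.0), 42.2 in LPS (39.9 to 44.5) and 41.7 in LPS+TM7nox (38.1 to 45.7). Its level in the anti-HuR library of the same number was 0.306 times that in IgG in DMSO, 2.10 times in LPS and 1.32 times in LPS+TM7nox. These ratios use RIP libraries that entered the choice and are no further support for it. Asb1 in IgG was at 5.50 CPM (4.78 to 6.30), 15.4 (14.0 to 16.8) and 17.5 (15.2 to 20.1). Its level in the anti-HuR libraries was 11.1, 1.03 and 1.86 times that. Seh1l in IgG was at 33.6 CPM (31.8 to 35.5), 33.8 (31.8 to 35.9) and 36.6 (33.2 to 40.3). Its level in the anti-HuR libraries was 7.35, 2.46 and 2.90 times that. IgG over RNA of the same number ranged from 0.988 to 1.65 over the 3 genes and treatments. These intervals cover counting error only.

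Ordered by mean level, Pola2 ran from RIP in LPS (76.0 CPM) and in LPS+TM7nox (62.1 ± 14.2 CPM) through the IgG and RNA groups, between 34.3 and 48.7 CPM, to RIP in DMSO (13.6 CPM). Only the last step, from the lowest RNA group to RIP in DMSO, had no overlap between groups of 4 libraries. Asb1 ran from RIP in DMSO (60.3 ± 8.57 CPM) and in LPS+TM7nox (51.5 ± 27.9 CPM), which overlapped, through RIP in LPS (17.4 ± 1.69 CPM) to RNA in LPS+TM7nox (12.9 ± 2.03 CPM), in LPS (8.98 ± 1.49 CPM) and in DMSO (4.25 ± 2.51 CPM). Its RNA groups did not overlap, but the closest libraries differed within counting error, at 10.5 against 10.4 CPM and at 6.86 against 6.69 CPM. Seh1l ran from RIP in DMSO (277 ± 33.2 CPM), above all else, to RIP in LPS+TM7nox (146 ± 37.1 CPM) and in LPS (116 ± 36.4 CPM), which overlapped. Its RNA groups had means between 36.0 and 38.9 CPM and overlapped as well (SD and n = 4 for each mean ± SD).

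The partners of Pola2 were the other subunits of its complex (Pola1, Prim1 and Prim2), the replisome factors Wdhd1 and Mcm10, and the telomere-binding CST complex that works with the polymerase (Ctc1, Stn1 and Ten1). None of the 8 was called in the change of RIP over RNA between LPS and DMSO, and none had an unadjusted p under 0.05 in edgeR. Of all 14311 genes, 0.0419% were called in either direction and 1041 (7.27%) had such a p, so counts of 0 or 1 in lists this short are near the background. DESeq2 called none of the genes of the 4 lists here either. Their median difference was 0.26, against 0.02 for all genes, and the range was −0.04 to 0.55. Pola1, the catalytic subunit, differed by 0.19 (SE 0.243), and the primase subunits Prim1 and Prim2 by −0.04 (SE 0.323) and 0.32 (SE 0.231). In total RNA, 6 of the 8 fell with LPS and none rose, where 20.2% of all genes tested were called higher and 21.7% lower. Wdhd1 fell by 2.84 (SE 0.267), Prim1 by 1.45 (SE 0.189), Pola1 by 1.11 (SE 0.145) and Prim2 by 1.07 (SE 0.153) on the log2 scale, by edgeR's quasi-likelihood test. Wdhd1 was named after its value was seen. The RNA of Pola2, at −0.27, lay above these. It lay below the 2 genes of the list that were not called, Mcm10 at −0.12 (SE 0.293) and Ten1 at 0.08 (SE 0.347). In RIP 5 of the 8 fell with LPS, including Pola1 by 0.80 (SE 0.180) and Prim1 by 1.39 (SE 0.256), where 23.5% of all genes were called higher and 21.2% lower. With no filter, which called 16.5% of all genes in either direction, 3 fell. Prim2 lost its call there (−0.63, adjusted p = 0.0540) and with replicates 1 and 2 alone (−0.61, adjusted p = 0.125 by edgeR). None of the 8 rose in RIP, against 1 with the replicate block (59.3% of all genes called) or without RIP LPS replicate 2 (44.9%). In LPS+TM7nox, 7 of the 8 were lower in RIP than in RNA and none was higher, where 35.2% of all genes were called higher and 34.8% lower. The list median was −1.14, whereas Pola2 was higher in RIP by 0.92.

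**Figure D3:**
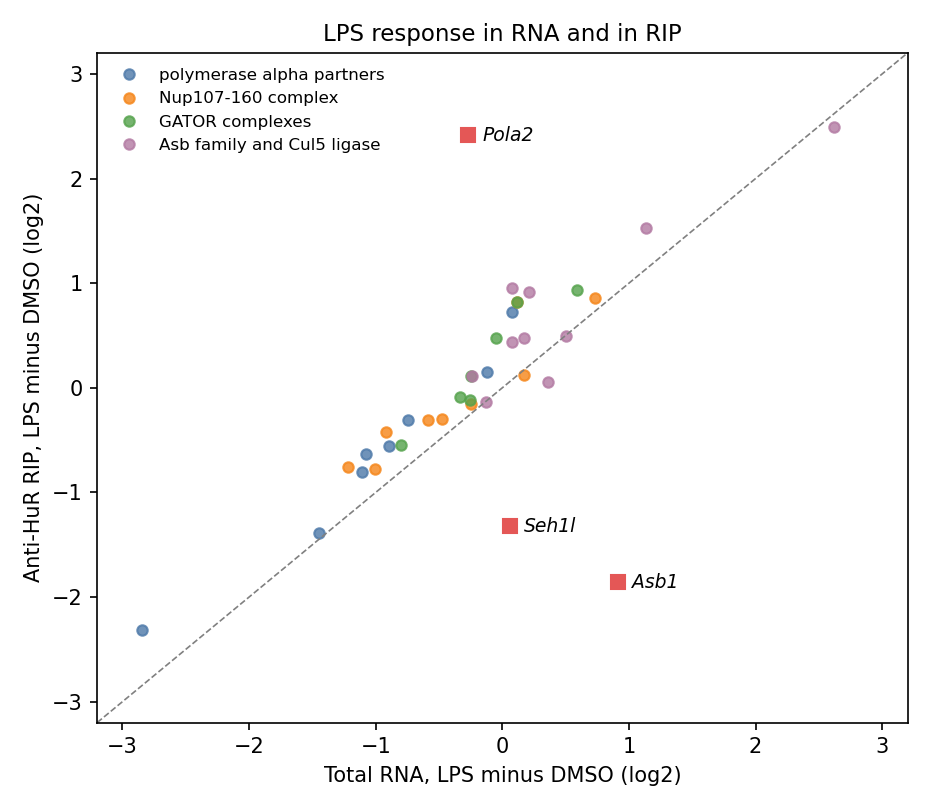
Log2 difference between LPS and DMSO in total RNA (x axis) and in anti-HuR RIP (y axis) for Pola2, Asb1 and Seh1l (red squares) and the genes of their partner lists tested in both (circles, coloured by list); the dashed line marks equal differences. The partner genes lie near the line, Pola2 lies above it at 2.42 in RIP and −0.27 in RNA, and Asb1 and Seh1l lie below it.

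The partners of Seh1l in the nuclear pore were the other 9 genes of the Nup107-160 list. None was called in the change of RIP over RNA between LPS and DMSO, and 1 had an unadjusted p under 0.05 (7.27% of all genes). Their differences ran from −0.17 to 0.56 with a median of 0.12. Nup85, the subunit that holds Seh1l, differed by 0.35 (SE 0.237), and the scaffold subunits Nup107 and Nup160 by 0.12 (SE 0.202) and 0.07 (SE 0.250). In RNA, 5 of the 9 fell with LPS and 1 rose, where 21.7% of all genes were called lower and 20.2% higher. Nup85 fell by 1.22 (SE 0.190), Nup107 by 1.01 (SE 0.144) and Nup160 by 0.48 (SE 0.140), with adjusted p of 0.000142, 6.83e-05 and 0.0140 in edgeR's quasi-likelihood test. The call for Nup160 was lost without RNA DMSO replicate 3 (−0.39, adjusted p = 0.0539) and without RNA LPS replicate 3 (−0.39, adjusted p = 0.0532), and then 3 of the 9 fell. It was also lost with no filter (−0.42, adjusted p = 0.0741) and with replicates 1 and 2 alone (−0.19, adjusted p = 0.665), where Nup85 was not called either (−1.0, adjusted p = 0.0514 by edgeR); 3 and 1 of the 9 fell in these fits. In RIP 2 of the 9 rose with LPS and 2 fell, near the shares of all genes (23.5% and 21.2%). With the replicate block 3 fell, in a fit that called 59.3% of all genes in either direction. In LPS+TM7nox, 1 of the 9 was higher and 5 were lower in RIP than in RNA, where 35.2% of all genes were called higher and 34.8% lower. The higher one was Nup98, by 2.55 (SE 0.215), above Seh1l and named after its value was seen. The list median was −0.73, against 2.04 for Seh1l. Under RLE scaling and in DESeq2, 3 were higher, as Nup107 (0.34 and 0.35) and Nup160 (0.40 and 0.40) then passed.

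The GATOR list held Mios, Wdr24, Wdr59 and Sec13, which form GATOR2 with Seh1l, and the GATOR1 subunits Depdc5, Nprl2 and Nprl3. Sec13, which also belongs to the Nup107-160 list, was the gene with the lowest p in both lists for the change of RIP over RNA between LPS and DMSO, at 0.56 (SE 0.247, adjusted p = 0.638 by edgeR). None of the 7 was called there, 1 had an unadjusted p under 0.05 (7.27% of all genes), and the median was 0.23. Mios differed by 0.14 (SE 0.233), Wdr24 by 0.43 (SE 0.363) and Wdr59 by 0.23 (SE 0.273). With replicates 1 and 2 alone the value was −0.26 for Mios and −0.20 for Wdr24. In RNA, 1 of the 7, Wdr59, rose with LPS, by 0.59 (SE 0.154), and 1 fell, where all genes gave 20.2% higher and 21.7% lower. With replicates 1 and 2 alone, which called 13.4% of all genes in either direction, Wdr59 was at 0.49 and not called. With the replicate block, which called 52.4%, 2 fell. In RIP 2 rose, Wdr59 by 0.93 (SE 0.199) and Sec13 by 0.82 (SE 0.212), and 1 fell, where all genes gave 23.5% higher and 21.2% lower. With the replicate block, which called 59.3% of all genes in either direction, 3 rose. With replicates 1 and 2 alone, which called 24%, neither Wdr59 nor Sec13 was called. In LPS+TM7nox, 5 of the 7 were lower in RIP than in RNA and none was higher, where 35.2% of all genes were called higher and 34.8% lower. Sec13 was at −1.77 (SE 0.179). With replicates 1 and 2 alone, which called 52.6% of all genes in either direction, 2 of the 7 were lower. Wdr24 was not called there (−0.64, adjusted p = 0.205 by edgeR).

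The relatives and ligase partners of Asb1 were 17 other Asb genes and the ligase subunits Cul5, Elob, Eloc and Rnf7. Of these 21 genes, 13 could be tested for the change of RIP over RNA between LPS and DMSO, none was called, and 1 had an unadjusted p under 0.05 (7.27% of all genes). The differences ran from −0.68 to 0.74 with a median of −0.11. The lowest p was that of Elob, elongin B, at 0.74 (SE 0.258, adjusted p = 0.538 by edgeR). Cul5, the cullin scaffold, differed by 0.17 (SE 0.274), Eloc, elongin C, by −0.11 (SE 0.341), and Rnf7, the RING subunit, by 0.23 (SE 0.221). In RNA, 11 of the genes could be tested, 2 rose with LPS and none fell, where all genes gave 20.2% higher and 21.7% lower. Those were the substrate receptors Asb6, by 1.13 (SE 0.141), and Asb11, by 2.62 (SE 0.502), both named after their values were seen. Mean RNA levels went from 11.8 to 27.4 CPM for Asb6, but only from 0.192 to 1.51 CPM for Asb11, which is near the floor. Without RNA LPS replicate 1, which called 41.4% of all genes in either direction, 4 rose and 1 fell. With the replicate block, which called 52.4%, 1 fell. In RIP 4 of 12 rose, among them Elob by 0.95 (SE 0.204), and none fell, where 23.5% of all genes were called higher and 21.2% lower. Elob was at 0.68 and not called with replicates 1 and 2 alone. With the replicate block 7 rose and 1 fell, in a fit that called 59.3% of all genes in either direction.

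In LPS+TM7nox, 6 of 13 genes of the Asb and Cul5 list were higher in RIP than in RNA and 4 were lower, where 35.2% of all genes were called higher and 34.8% lower. Cul5 was higher by 2.99 (SE 0.208), while Elob was lower by 2.10 (SE 0.190) and Rnf7 by 1.06 (SE 0.158), each called by edgeR's quasi-likelihood test. Asb1, at 2.06, was on the side of Cul5. So were Asb8 (4.70), Asb5 (2.56), Asb4 (2.49), Asb7 (2.34) and Asb3 (0.66), while Asb6 (−1.37) and Asb11 (−1.24) were on the other. These Asb genes were named after their values were seen. Mean levels of Asb4 and Asb5 reached at most 1.14 CPM in any group. The interaction of LPS+TM7nox against LPS called none of the genes of the 4 lists, and 1 gene had an unadjusted p under 0.05, in the Asb and Cul5 list, against 5.39% of all genes.

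**Figure D4:**
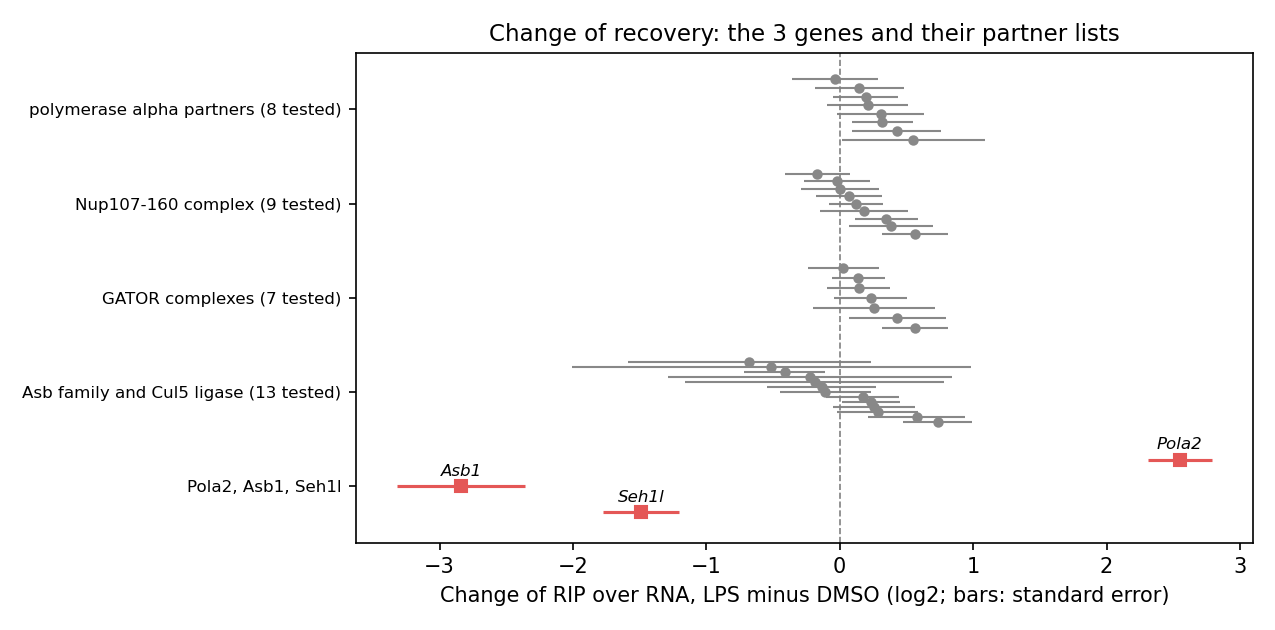
Change of RIP over RNA between LPS and DMSO (log2, with standard errors) for each tested gene of the 4 partner lists (grey) and for Pola2, Asb1 and Seh1l (red). The partner genes lie between −0.68 and 0.74, and the 3 chosen genes lie at −2.84, −1.49 and 2.55.

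Among 8323 genes with a mean of at least 5 CPM, the 3 most like each gene were found by Pearson's r over 12 values, 1 RIP minus RNA difference for each treatment and replicate number. For Pola2 they were Tpbg (r = 0.967), the cystine transporter gene Slc7a11 (r = 0.942) and Son (r = 0.941). Tpbg differed in RIP over RNA between LPS and DMSO by 4.28 on the log2 scale, Slc7a11 by 0.80 and Son by 0.40. For Asb1 they were the transcription factor gene Pou2f2 (r = 0.931), Mtx3 (r = 0.929) and Apbb3 (r = 0.928), with differences of −0.82, −0.77 and −1.86. For Seh1l they were Hook3 (r = 0.940), Spag9 (r = 0.927) and Glrx2 (r = 0.927), with differences of −1.42, −0.58 and −0.94. The 12 values share 3 treatments and 4 replicate numbers, so a like pattern can come from the treatment means alone, and r is a description. Over the levels in all 24 RNA and RIP libraries, r was between 0.903 and 0.951 for Hook3 and Glrx2, between 0.175 and 0.781 for Tpbg, Slc7a11, Son, Pou2f2, Mtx3 and Apbb3, and −0.277 for Spag9.

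Among the 3 genes themselves, r over the same 12 values was −0.911 between Pola2 and Asb1, −0.793 between Pola2 and Seh1l and 0.735 between Asb1 and Seh1l. The signs follow from the choice, since Pola2 was chosen for a higher and the others for a lower value in LPS.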

How the data were processed

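The authors deposited 1 table of raw counts, whole numbers of reads per gene for 55483 Ensembl genes in 27 libraries. Per the submitters' processing notes, FastQC 0.11.9, STAR, HTSeq and DESeq2 were used and the build was GRCm39; the sources used here state neither their settings, the annotation release nor the use of strand. Per the labels' protocols, 7 ng of RNA from about 30 M cells per sample entered the SMART-Seq Stranded kit. Gene models were matched from GENCODE M39 by identifier (51731 of 55483, 93.2%).

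The count tests used edgeR 4.0.16 (R 4.3.3): TMM scaling, filterByExpr with a minimum count of 10, two-sided quasi-likelihood F tests, Benjamini-Hochberg adjustment over all genes tested and an FDR threshold of 0.05. RIP over RNA and its changes came from 1 fit of 6 group means in 24 libraries, and LPS against DMSO within an assay from 12. CPM are on 1 TMM scale over 27 libraries, and log2 CPM used a prior count of 2. TMM takes the typical gene as unchanged, so RIP over RNA has no absolute scale. Alternatives were RLE scaling, DESeq2 1.42.0, no filter, a replicate block, replicates 1 and 2 or 3 and 4 alone, leaving out each library and, added after seeing the data, a fit of the 8 LPS+TM7nox libraries alone. The numbers 1 to 4 come from the labels. In all 7 pairs of groups checked, every same-numbered pair deviated together (r between 0.143 and 0.507), so the numbers pair the libraries.

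The scripts were tested on simulated data. No pair of replicates agreed within sampling noise (chi-square per gene 38.0 to 213 over 36 pairs). The 3 genes, the partner lists and the alternatives were chosen with earlier results of these data known. Named were the 3 genes, in each list the gene with the lowest p in the choosing comparison, the direct binding partners of the products, and the 3 genes most like each. Any other gene was named after its values were seen. Likeness left out predicted genes (Gm and digits, or Rik).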

Additional observations from a re-analysis of the deposited data

Results flagged for a closer look

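In total RNA from LPS+TM7nox, Pola2 in replicate 2 stood apart from its group at 28.3 CPM, while the other 3 libraries lay between 35.8 and 36.7 CPM. Its gap took up 0.885 of the group's range, above Dixon's 95% limit for 4 values. It was 1 of 27 groups of 4 values so examined for the 3 genes, 18 of levels and 9 of RIP minus RNA differences, and chance gives about 1 in 20. RIP over RNA of Pola2 differed between LPS and DMSO by 2.55 on the log2 scale, that of Asb1 by −2.84 and that of Seh1l by −1.49. These differences are the ones the 3 genes were chosen for.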

How the results depend on the processing

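The change of RIP over RNA between LPS and DMSO called 6 genes. It called 49 with no filter, 50 with the replicate block, 66 with DESeq2, 0 with replicates 1 and 2 alone (299 at an unadjusted p under 0.05 in edgeR), 13 with replicates 3 and 4 alone, and 4 to 11 with a library left out. The most, 11, were called without RNA DMSO replicate 1. For LPS+TM7nox against LPS it called 1 gene, and 5, 2, 3, 0 and 0 under the same settings in that order (298 and 962 at an unadjusted p under 0.05 where it called 0), and 1 to 3 with a library left out. Replicates 1 and 2 alone called 1668 genes in place of 5190 for LPS against DMSO in RNA, and 3392 in place of 6090 in RIP. RIP over RNA in LPS+TM7nox stayed called and positive for Pola2 (0.75 to 1.15), Asb1 (1.76 to 2.34) and Seh1l (1.75 to 2.27) over 15 alternatives each. The chosen differences kept their sign over 22 alternatives: 2.38 to 2.79 for Pola2 (2.48 to 2.79 with a library left out, highest without RIP LPS replicate 1), −3.10 to −2.59 for Asb1 and −1.75 to −1.26 for Seh1l. They passed the threshold in 21, 20 and 5 of these; Seh1l missed it with RLE scaling and in 15 of 16 fits without a library. Of the partner list counts, replicates 1 and 2 alone lowered 12 by over 1.5 times, no filter lowered 3 and replicates 3 and 4 alone raised 7. RLE scaling moved RIP over RNA of all genes in LPS+TM7nox by a median of 0.22. Among the partner genes named by rule, the replicate block added calls in edgeR for LPS against DMSO in RNA for Mios (−0.34, adjusted p = 0.0457) and Eloc (0.54, adjusted p = 0.00301), in RIP for Wdr24 (0.46, adjusted p = 0.0339), Nup160 (−0.31, adjusted p = 0.0324), Cul5 (0.45, adjusted p = 0.00596) and Eloc (0.53, adjusted p = 0.00254), and for Eloc in RIP over RNA in LPS+TM7nox (−0.46, adjusted p = 0.0455). The causes of these moves were not tested. Depth limits Asb1 in RNA DMSO replicate 1, which rests on 4 reads.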
